A study of Homo sapiens with 6 samples.

Results

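Acute-phase proteins are secreted proteins whose levels change when tissue is injured or infected. The 10 genes described here were taken by symbol from the deposited table of normalized counts: the serum amyloid A genes SAA1, SAA2 and SAA4, the siderophore binder LCN2, the pentraxin PTX3, the antiproteases SERPINA1, SERPINA3 and SLPI, and the metal and heme carriers CP and HP. The table held a row for 9 of them, out of 30267 genes, and SERPINA3 was not analysed here.

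Total RNA, depleted of ribosomal RNA, was sequenced from SW839, an established renal cell carcinoma (RCC) line, to ask what the E3 ubiquitin ligase RNF25 does in these cells. In 3 libraries (shRNF25) the cells carried a short hairpin RNA against RNF25, and the library names give a single hairpin. In 3 libraries (shControl) they carried the pLKO vector. In the study's methods such lines, pLKO ones included, were made by lentiviral infection and puromycin selection, and no stimulus is stated for either group. The control library names differ in form from each other and from those of shRNF25. Whether the groups were infected, prepared or sequenced together is not stated in the sources used here. Since all 6 treatment labels name the shRNF25 plasmid, those of the controls too, titles and genotype labels defined the groups. The series' design text calls the libraries biological triplicates without saying that each came from its own infection, and p-values measure the spread between these libraries.

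The liver makes most acute-phase proteins, and epithelia, kidney tubules among them, make some of them as well. In textbook accounts IL-1 and TNF act on these genes through NF-κB, IL-6 acts through STAT3, and factors of the C/EBP family act together with both. The secreted products differ in their work: serum amyloid A travels on lipoproteins and attracts leukocytes, lipocalin-2 keeps iron from bacteria, pentraxin-3 opsonizes microbes, and the serpins and SLPI protect tissue from neutrophil proteases.

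The reads assigned to genes numbered 18647460 to 19943154 per library. RNF25 itself was at 694.2, 533.5 and 536.4 normalized counts in shControl and at 214.1, 245.7 and 265.0 in shRNF25, a mean of 41.1% of control (log2 fold change -1.27, SE 0.15, limma with Benjamini-Hochberg adjustment, adjusted p = 0.000585). The epithelial keratins KRT8 and KRT18 and the adhesion molecule EPCAM were abundant, and the renal factor PAX8 was at 118.0 to 140.3 in shControl and 76.7 to 109.6 in shRNF25. The renal genes PAX2, CDH16 and LRP2 had no row. CA9, a marker of clear cell carcinoma, was at 7.74, 12.3 and 50.7 in shControl and at 8.20, 1.85 and 4.77 in shRNF25. Mitochondrial transcripts took 12.1% of reads in shControl replicate 1 and 3.58% to 4.44% in the other 5 libraries. Pairs of shControl libraries differed more (21.6 to 109.9 chi-square per degree of freedom) than pairs of shRNF25 libraries (3.72 to 5.35).

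SAA1, SAA2, LCN2 and SERPINA1 were lower in shRNF25, no gene of the list was called higher, and PTX3, SLPI and CP were not called in either direction. A gene was called when the adjusted p was below 0.05 and the fold was at least 1.5. The test covered 16554 genes whose normalized count reached 10 in at least 3 libraries, and it called 7.1% of them lower and 8.65% higher. Neither edgeR nor DESeq2 called a gene of the list higher, and at an unadjusted p below 0.05 limma found 0 higher. The filter kept 7 of the 9 acute-phase rows and left out SAA4 and HP. SAA1 and SAA2 passed it only through the shControl libraries, so that they had to differ between the groups to be tested at all. Non-overlapping groups were seen for 5 of the 9 rows (SAA1, SAA2, SAA4, LCN2 and SERPINA1), each time with shRNF25 lower. Of these, SAA4 was not among the tested genes, over which the shares that follow were taken. For SAA1 and SAA2, passing the filter through shControl alone already meant no overlap. Among all tested genes 21.8% had groups that did not overlap with shRNF25 lower, and 42.5% in either direction.

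**Figure D1:**
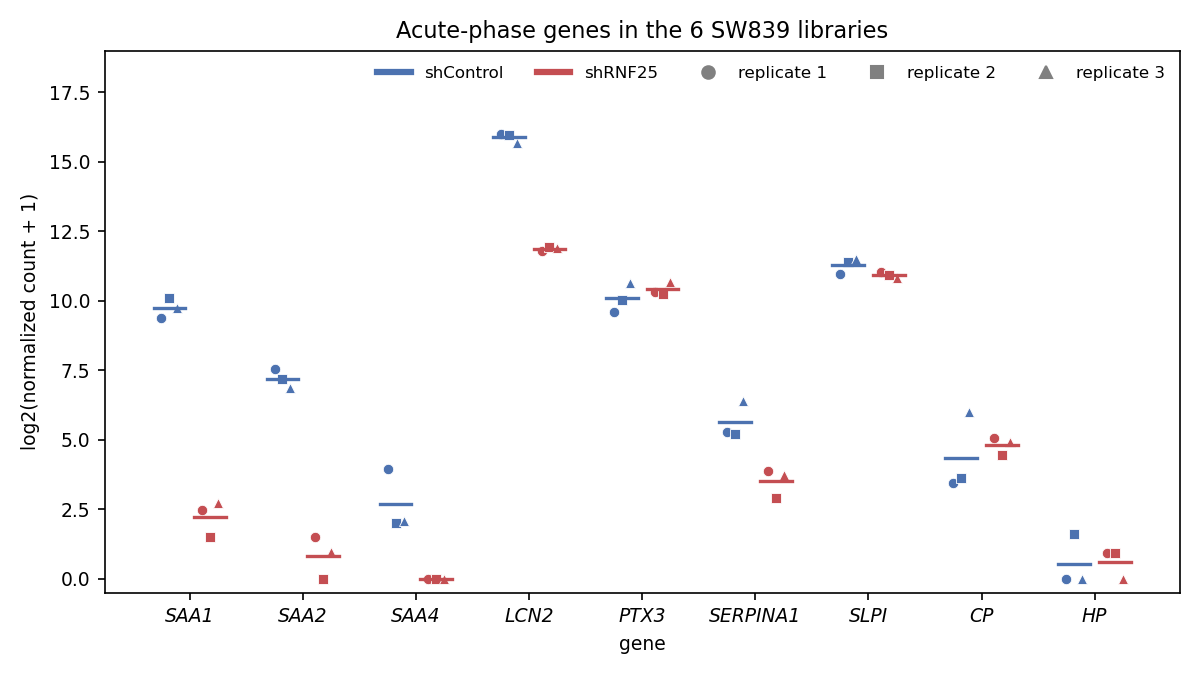
Level of each acute-phase gene on the log2(normalized count + 1) scale (vertical axis) by gene (horizontal axis). Each symbol is 1 library, shControl in blue and shRNF25 in red, and bars are means of 3 libraries. SAA1, SAA2, SAA4, LCN2 and SERPINA1 have every shRNF25 library below every shControl library, while PTX3, SLPI, CP and HP overlap, and shControl replicate 3 lies far above the other 2 for CP.

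The serum amyloid A genes lie side by side on chromosome 11 of GRCh38. In the GENCODE 29 annotation SAA4 spans 18231349 to 18236893 and SAA2 spans 18239223 to 18248643, both on the minus strand, and SAA1 spans 18266174 to 18269977 on the plus strand. SAA1 and SAA2 are the inducible, acute-phase forms, and SAA4 is the constitutive form. The coding sequences of SAA1 and SAA2 are shown in part because their likeness decides how far the counts of both genes can be told apart. Both have 369 bases, they differ at 11 of them (97.0% identity), and their longest identical run is 186 bases. The stretch from base 220 to base 333 of the GENCODE 29 coding sequences holds 10 of the differences, which the capitals mark:
SAA1: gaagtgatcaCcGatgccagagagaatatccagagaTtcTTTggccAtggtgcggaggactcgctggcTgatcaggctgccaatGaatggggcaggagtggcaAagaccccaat
SAA2: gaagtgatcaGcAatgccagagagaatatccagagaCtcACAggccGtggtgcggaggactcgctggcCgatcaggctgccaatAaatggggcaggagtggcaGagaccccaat

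Over whole transcripts, 46.6% of the 50-base words of SAA1 also occurred in SAA2, and 17.95% of those of SAA2 occurred in SAA1. The coding sequence of SAA4 is more distant, with 70.4% identity to SAA1 and 69.6% to SAA2. It shares exons instead with the readthrough gene SAA2-SAA4, which covers 65.5% of the exon bases of SAA4 and 12.0% of those of SAA2 and had no row. Reads that match 2 of these genes equally could have been lost or moved between them in the counting, so SAA1 and SAA2 were also summed. The sum covers reads moved between SAA1 and SAA2 and does not bring back lost ones.

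SAA1 was at 668.8, 1089 and 864.5 normalized counts in shControl replicates 1, 2 and 3, from 605, 1061 and 801 reads. The shRNF25 libraries held 4.56, 1.85 and 5.72, from 5, 2 and 6 reads. All 3 hairpin libraries were thus near the bottom of what was counted, and the groups lay far apart. The mean was 874.0 ± 210.1 (SD, n = 3) in shControl and 4.04 ± 1.99 in shRNF25, or 0.462% of control. The log2 fold change was -7.50 (SE 0.33, 95% interval -8.24 to -6.77, limma adjusted p = 3.04e-06), and the exact permutation p was 0.1, the smallest that 3 against 3 libraries allow. No tested gene fell further on the log2 scale, in this or any of the 15 other fits. With so few reads left, the size of the fold is known loosely: 2467 reads against 13 gave a ratio of normalized reads of 218.4, with an interval of 127.5 to 410.8 that covers counting error only.

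SAA2 was at 185.7, 146.7 and 116.6 normalized counts in shControl. In shRNF25 it was at 1.82, 0 and 0.953, which were 2, 0 and 1 reads. SAA2 therefore followed SAA1 down to a few reads per library, and 1 hairpin library had none. The log2 fold change was -6.39 (SE 0.41, 95% interval -7.30 to -5.47, limma adjusted p = 2.19e-05). The ratio of 419 reads to 3 was 160.8, with a counting interval of 54.6 to 782.7. On the log2(normalized count + 1) scale this fold depended on the pseudocount, since a pseudocount of 5 gave -4.69 and 0.5 gave -6.95.

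The sum of SAA1 and SAA2, which does not depend on how reads were divided between both genes, was 854.5, 1235 and 981.1 in shControl. In shRNF25 the sum was 6.38, 1.85 and 6.67. The log2 fold change of the sum was -7.54 (SE 0.36, 95% interval -8.35 to -6.73, limma adjusted p = 6.08e-06), close to that of SAA1, which supplied most of the reads. The reads of SAA1 and SAA2 were 2467 and 419 over the controls and 13 and 3 over the hairpin libraries, too few in the latter to compare their proportions.

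SAA4 was low throughout. It had 13, 3 and 3 reads in shControl, or 14.4, 3.08 and 3.24 normalized counts, and no read in any shRNF25 library. Set against a floor of 3 reads over the group, SAA4 was 7.29-fold lower in shRNF25. Without shControl replicate 1, which carried most of its reads, SAA4 was 3.40-fold lower. Both values take the control reads as exact and so are no bounds. With all libraries, the exact counting interval of the ratio had a lower limit of 5.37, which covers counting error only. Without the filter on low values limma gave a log2 fold change of -2.68 (adjusted p = 0.0142 over 30267 genes), a value that depends on the pseudocount and is no bound. Which of these reads came from the SAA2-SAA4 readthrough cannot be told apart.

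LCN2 encodes lipocalin-2, the protein that binds bacterial siderophores and is released by stressed kidney tubules. The gene spans 128149071 to 128153455 on the plus strand of chromosome 9 of GRCh38, and no 50-base word of its transcripts occurred in another gene. LCN2 was at 65323, 64778 and 52351 normalized counts in shControl. In shRNF25 it was at 3585, 3954 and 3810. The hairpin libraries lay close together and far below the lowest control. The mean was 60817 ± 7337 (SD, n = 3) in shControl and 3783 ± 186.4 in shRNF25, a 16.1-fold difference (log2 fold change -4.00, SE 0.12, 95% interval -4.27 to -3.73, limma adjusted p = 5.51e-07, exact permutation p = 0.1). LCN2 alone took 0.260% to 0.319% of all reads on genes in shControl and 0.0203% to 0.0217% in shRNF25. Among the 16554 tested genes 21, LCN2 included, fell at least as far. LCN2 remained well expressed in shRNF25, where SAA1 and SAA2 had a handful of reads, and the log2 ratio of SAA1 to LCN2, with a pseudocount of 1, was lower by 3.50 (-6.14 ± 0.41 in shControl and -9.64 ± 0.70 in shRNF25, SD, n = 3, exact permutation p = 0.1, adjusted over 8 ratios 0.1). In bulk RNA, fewer expressing cells and less RNA per cell cannot be told apart.

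PTX3 encodes pentraxin-3, a long pentraxin made at sites of inflammation rather than in the liver, and spans 157436789 to 157443628 on the plus strand of chromosome 3. PTX3 was at 781.5, 1055 and 1601 normalized counts in shControl. In shRNF25 it was at 1288, 1209.8 and 1640.4. The groups overlapped, and the 3 controls spread over a wider range than the 3 hairpin libraries. The log2 fold change was 0.32 (SE 0.24, 95% interval -0.21 to 0.85, limma adjusted p = 0.371, exact permutation p = 0.4), so that the interval reaches neither the fall of LCN2 nor that of SAA1. Without shControl replicate 3, its highest control, PTX3 was called higher (log2 fold change 0.59, limma adjusted p = 0.0459). The log2 ratio of LCN2 to PTX3 within a library was 5.78 ± 0.69 in shControl and 1.47 ± 0.25 in shRNF25 (SD, n = 3), with no overlap (exact permutation p = 0.1, adjusted over 8 ratios 0.1). VEPH1, which shares 3.66% of the exon bases of PTX3 on the other strand, had a log2 fold change of 0.60 (limma adjusted p = 0.0299). Whether reads were counted by strand is not given in the sources used here.

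LCN2 and PTX3 are both textbook NF-κB targets, and their upstream sequences are shown because the counts of one were lower and those of the other were not. The stretches run from 180 to 80 bases before the RefSeq start on GRCh38.p14, at chr9:128149273-128149373 and chr3:157436670-157436770, both on the plus strand. The capitals mark matches, on either strand, to a word for κB sites (GGGA, any 4 bases, then CC) and to a word for C/EBP sites (TTNNGNAA):
LCN2: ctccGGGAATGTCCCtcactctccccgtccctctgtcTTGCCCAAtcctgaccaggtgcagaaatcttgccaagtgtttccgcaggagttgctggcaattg
PTX3: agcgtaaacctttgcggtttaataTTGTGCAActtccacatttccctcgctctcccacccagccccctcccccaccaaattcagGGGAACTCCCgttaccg

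In LCN2 a κB word on each strand overlapped the other, starting 176 and 175 bases before the start, and a C/EBP word began at 143 bases. PTX3 held a C/EBP word at 156 bases and a κB word at 96 bases before the start. Both words were therefore present in both genes, in opposite order. Over the window from 250 bases before to 50 after the start, 25.6% of 35116 RefSeq promoters held the κB word and 36.8% the C/EBP word, so a match is no more than a description. Promoters were matched for LCN2, PTX3, SAA4, SERPINA1 (with 2 starts) and SERPINA3, and not for SAA1, SAA2, CP, HP and SLPI. SAA4 held 6 C/EBP words and no κB word, SERPINA3 held 1 of each, overlapping, and SERPINA1 held a single C/EBP word at 1 of its starts. None of the 6 windows held TTCNNNGAA, a word for STAT sites (7.66% of promoters), or TATAAA (11.5%).

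**Figure D2:**
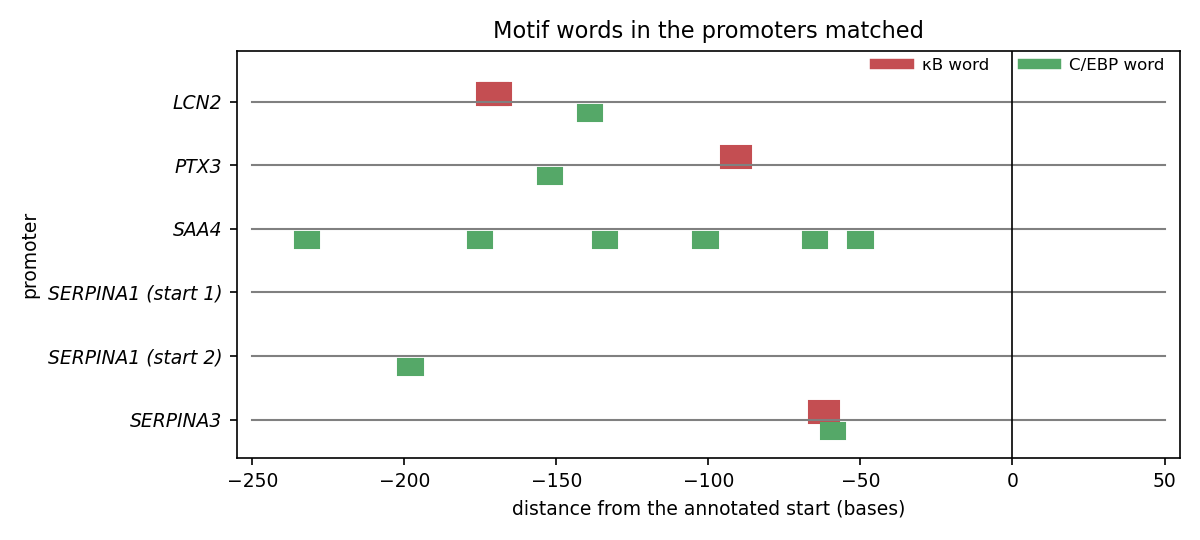
Motif words in the 6 RefSeq promoters matched, by distance from the annotated start in bases (horizontal axis) and promoter (vertical axis). Red boxes are κB words and green boxes C/EBP words on either strand. LCN2, PTX3 and SERPINA3 hold both words, SAA4 holds 6 C/EBP words, and the first SERPINA1 start holds none.

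Of the antiproteases, SERPINA1 was lower and SLPI was not called. SERPINA1 encodes alpha-1-antitrypsin, the main plasma inhibitor of neutrophil elastase, on the minus strand of chromosome 14 from 94376747 to 94390693. It was at 37.6, 35.9 and 84.2 normalized counts in shControl. In shRNF25 its values were 13.7, 6.46 and 12.4. Every hairpin library was below every control, while shControl replicate 3 stood above the other controls. The mean fell 4.85-fold, from 52.6 ± 27.4 to 10.8 ± 3.84 (SD, n = 3), with a log2 fold change of -2.12 (SE 0.40, 95% interval -3.02 to -1.23, limma adjusted p = 0.00572, exact permutation p = 0.1). SERPINA1 was a low gene in these cells, with 7 to 78 reads per library. SERPINA3, which encodes alpha-1-antichymotrypsin, starts 221684 bases past SERPINA1 in the same serpin cluster.

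SLPI encodes the secretory leukocyte protease inhibitor, a small inhibitor of elastase and cathepsin G on epithelial surfaces, on the minus strand of chromosome 20 from 45252239 to 45254564. SLPI was at 1988, 2702 and 2891 normalized counts in shControl. In shRNF25 it was at 2099, 1966 and 1810.1. The lowest control lay within the range of the hairpin libraries. The log2 fold change was -0.35 (SE 0.15, 95% interval -0.69 to -0.02, limma adjusted p = 0.125, exact permutation p = 0.2). Without shControl replicate 1, the library rich in mitochondrial reads, the log2 fold change was -0.52 with an adjusted p of 0.00156 (limma), still under a fold of 1.5. The log2 ratio of LCN2 to SLPI within a library was lower by 3.65 in shRNF25, and that of SERPINA1 to SLPI was lower by 1.77.

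Of the carriers, neither CP nor HP showed a difference that could be called. CP encodes ceruloplasmin, the copper-bearing ferroxidase of plasma, on the minus strand of chromosome 3 from 149162410 to 149222055. It was at 9.95, 11.3 and 63.7 normalized counts in shControl. The shRNF25 values were 32.8, 21.2 and 29.5. The hairpin libraries lay between the lower 2 controls and shControl replicate 3. The log2 fold change was 0.47 (SE 0.60, 95% interval -0.89 to 1.82, limma adjusted p = 0.616, exact permutation p = 0.7). That single control decided the result: without it the control mean was 10.6 and CP was called higher, by 1.29 on the log2 scale (limma adjusted p = 0.0171). HPS3, on the opposite strand, covers 19.4% of the exon bases of CP and was at 867.7 to 1280.1 in shControl and 736.2 to 789.2 in shRNF25. HP encodes haptoglobin, which binds free hemoglobin, and lies on chromosome 16 from 72054592 to 72061055 inside TXNL4B. It had 0, 2 and 0 reads in shControl and 1, 1 and 0 in shRNF25, which allows no fold. Its paralog HPR, which shares 10.8% of its 50-base words, had no row.

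**Figure D3:**
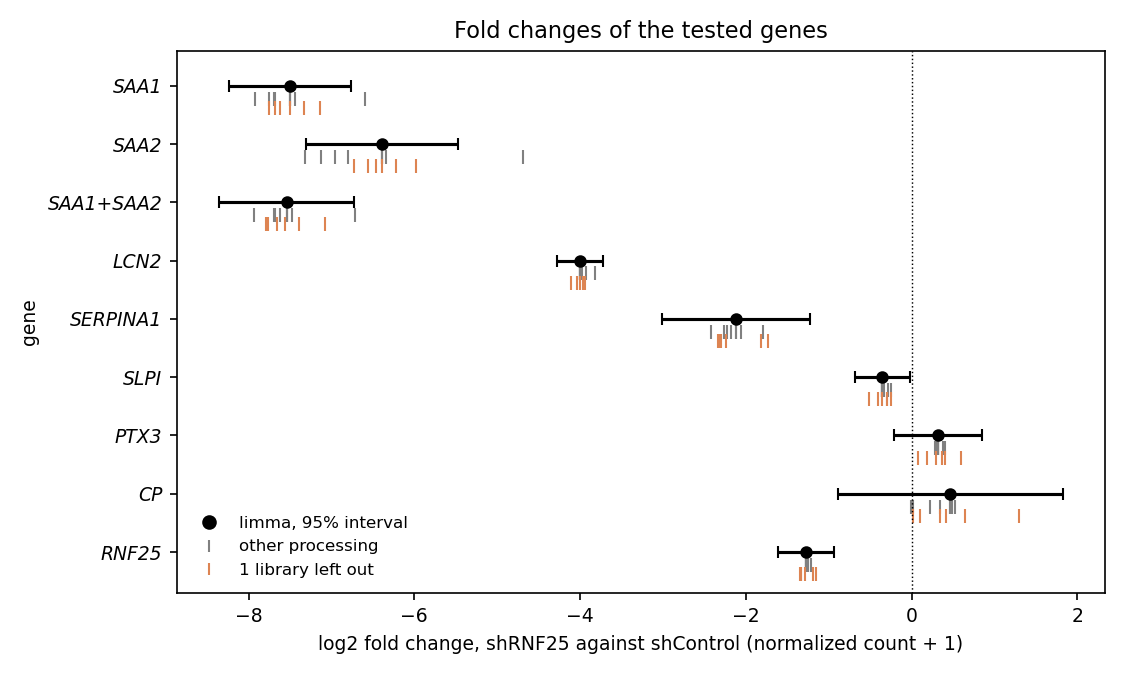
Log2 fold change of shRNF25 against shControl (horizontal axis) for each tested acute-phase gene, for SAA1 and SAA2 summed and for RNF25 (vertical axis). Black points with bars are limma estimates with 95% intervals, grey ticks other ways of processing, and orange ticks fits with 1 library left out. LCN2 has the narrowest interval (-4.27 to -3.73), and the ticks of SLPI, PTX3 and CP lie near 0, with 1.29 for CP the farthest.

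Levels of different genes can be compared roughly per kilobase of exon. LCN2 was the highest of the group in shControl (38058 ± 4592 normalized counts per kilobase, SD, n = 3). It was followed there by SLPI (4240 ± 799.6), SAA1 (1098 ± 263.9), PTX3 (590.5 ± 215.0) and SAA2 (67.2 ± 15.6). The remaining genes were at a low level, and the mean ± SD ranges of SERPINA1 (10.7 ± 5.59), SAA4 (9.48 ± 8.91) and CP (3.88 ± 4.20) overlapped. In shRNF25 the order of levels was another: SLPI (3286 ± 242.9) stood above LCN2 (2367 ± 116.6), then came PTX3 (711.0 ± 118.3), and SAA1 (5.08 ± 2.50) was beside CP (3.82 ± 0.817) and SERPINA1 (2.21 ± 0.784). Exon lengths are those of GENCODE 29 and may differ from the annotation used for counting. They join the exons of all transcripts of a gene, 796 bases for SAA1 and 2227 for SAA2. A gene expressed from a shorter transcript is therefore understated.

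The genes whose changes over the 6 libraries most resembled those of SAA1, LCN2 and PTX3 were sought among 11338 tested genes with a mean of at least 100. SAA2 averaged less than that and was not a candidate. The measure was the root mean square difference between log2 profiles, each centred on its shControl mean. For SAA1 they were the cytokine IL1B (0.85), the chemokine CXCL5 (0.98) and complement C3 (1.65), and SAA1 fell further than each of them. For LCN2 they were the cytokine IL6 (0.19), the hormone gene STC1 (0.27) and the chemokine CXCL8 (0.27). For PTX3 they were TRAFD1 (0.10), ATP2A3 (0.11) and MED17 (0.11), all genes with little change. These are descriptions over libraries that share depth and scaling.

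Other positive acute-phase proteins moved in both directions. The list had 23 genes, of which 16 had a row and 6 were tested, with 3 lower and 2 higher and a median log2 fold change of -0.77, against -0.01 over all tested genes. The background for this and the following lists was 7.1% of all tested genes called lower and 8.65% called higher. C3, the central complement protein, fell by 5.28 on the log2 scale, from 17201 ± 4230 to 433.5 ± 23.3 (SD, n = 3, limma adjusted p = 9.08e-07). Complement factor CFB (-2.13) and the glycoprotein LRG1 (-1.71) were lower too. The fibrinogen chain FGB (2.67) and the heme carrier HPX (1.01) were higher, from control means of 4.27 and 19.2. FGB reached the minimum for testing in the shRNF25 libraries alone and so had to differ to be tested. A minimum of 50 removed the calls of FGB, HPX and CFB, and HPX was not called without shRNF25 replicate 1 or 2. RBP4, the retinol carrier and the 1 tested gene among 11 negative acute-phase proteins, rose from 80.9 ± 21.2 to 464.2 ± 30.7 (log2 fold change 2.53, limma adjusted p = 5.25e-05).

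Among the cytokines that induce acute-phase genes and their receptors, all 21 had a row and 18 were tested, with 8 lower and 0 higher in limma. The count of higher genes was 0 with edgeR and DESeq2 as well, and 2 at an unadjusted p below 0.05 in limma. The median log2 fold change was -0.48. IL1B fell by 6.42 on the log2 scale, from 23568 ± 3816 to 275.3 ± 55.6 normalized counts (SD, n = 3). IL1A (-5.02), TNF (-4.30) and IL6 (-3.83) were lower as well. TNF was tested through its shControl libraries alone and rests on few reads in shRNF25, with values of 0.911, 1.85 and 8.58. Among the receptors the signal chain IL6ST had a log2 fold change of 0.11 (limma adjusted p = 0.695), and the OSM receptor OSMR was lower by 0.79. A fold of at least 2 left 5 lower genes in this list. The call of the receptor gene IL1RAP was lost in 5 of the 6 fits with a library left out.

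The transcription factors of these genes differed less. Of 19 factors 15 were tested, 3 were lower and 1 was higher, with a median log2 fold change of -0.18. REL (-0.85), CEBPB (-0.81) and the IκB-like coactivator NFKBIZ (-0.79) were lower, and the hepatic factor FOXA2 (1.43) was higher. These calls were not equally stable: that of FOXA2 was lost without shControl replicate 2, and those of FOXA2 and REL were lost without shRNF25 replicate 1, 2 or 3. RELA, which encodes the p65 subunit of NF-κB, had a log2 fold change of -0.43 (limma adjusted p = 0.148) with overlapping groups. The fall of CEBPB, from 3130 ± 388.2 to 1778 ± 30.7 (SD, n = 3), was thus smaller on the log2 scale than those of the cytokines named.

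Secreted defense proteins of epithelia, the company in which LCN2 and SLPI are usually found, numbered 20, of which 18 had a row and 7 were tested. Here 4 were lower and 1 was higher, with a median log2 fold change of -0.99. The calprotectin subunit S100A8 went from 116.1, 178.5 and 101.5 in shControl to 1 read in each shRNF25 library, and as it reached the minimum for testing in shControl alone it had to differ to be tested. Its partner S100A9 (log2 fold change -1.25), the mucosal scavenger DMBT1 (-2.60) and the elastase inhibitor PI3, a relative of SLPI (-0.99), were lower too. The cobalamin carrier TCN1 was higher (2.03).

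**Figure D4:**
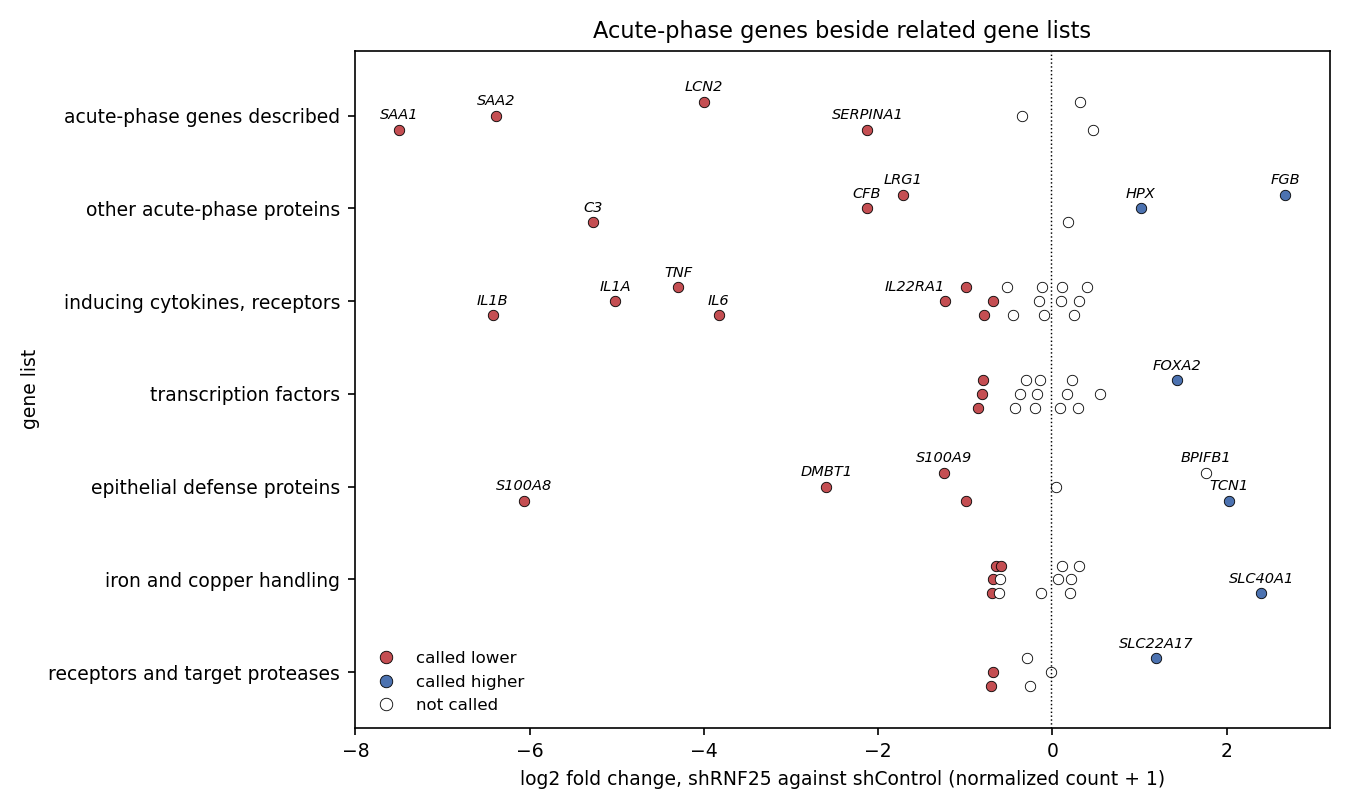
Log2 fold change of shRNF25 against shControl (horizontal axis) for the tested genes of 7 lists (vertical axis). Each point is a gene, red when called lower, blue when called higher and white when not called, and the dotted line is the median of all tested genes. SAA1 (-7.50) is the leftmost point, and the transcription factors and metal handling genes lie closer to 0 than the cytokines IL1B, IL1A, TNF and IL6.

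Iron and copper handling, the process in which LCN2 and CP take part, had 15 genes on its list, with 14 rows and 13 tested. FTL (-0.70), ACO1 (-0.68), SLC11A2 (-0.65) and TFRC (-0.59) were lower, and the iron exporter SLC40A1 was higher (2.40). The median log2 fold change was -0.14. The lower calls lay close to the threshold, and their number was 1 with quantile normalization, 2 without shRNF25 replicate 2 and 0 at a fold of at least 2. The call of SLC40A1 was lost with a minimum of 50. Of 18 receptors and target proteases of these proteins, 6 were tested. TLR2 (-0.71) and SCARB1 (-0.68), both of which bind serum amyloid A, were lower, and SLC22A17, a receptor for LCN2, was higher (1.19, from 54.0 ± 8.37 to 123.9 ± 8.67, SD, n = 3, limma adjusted p = 0.00196). Their median was -0.27. Neither TLR2 nor SCARB1 was called without shRNF25 replicate 1, and 1 of them was called without shControl replicate 3, without shRNF25 replicate 2 or 3, or with quantile normalization.

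Hepatocyte and leukocyte markers, of cells that also make these proteins, were mostly low. Of the fibroblast and endothelial markers, COL1A1 and PECAM1 were not low. Of 10 hepatocyte markers 7 had a row, ALB stayed at or below 3.24 in every library, and the summed level was 600.1 to 853.4 in shControl and 477.5 to 505.2 in shRNF25, nearly all of it CPS1 (log2 fold change -0.65). CPS1 was called lower, but not with quantile normalization or in 5 of the 6 fits with a library left out. Of 12 leukocyte markers 8 had a row, the pan-leukocyte gene PTPRC was at 3.81 to 14.6, and the sum was 136.0 to 226.8 in shControl and 53.4 to 75.6 in shRNF25. S100A8 made most of that difference. ITGAM had a log2 fold change of 0.86 (limma adjusted p = 0.0465), and its call was lost in 5 of the 6 fits with a library left out and in 5 of 9 other ways of processing. All 10 fibroblast and endothelial markers had a row, summing to 1603 to 1991 in shControl and 1486 to 1824 in shRNF25. COL1A1 (means 1177 in shControl and 913.6 in shRNF25) and PECAM1 (400.3 and 451.8) made most of the sum, and neither was called. CDH5 was lower (-4.12), and COL3A1 (4.59) and KDR (1.78) were higher. CDH5 was tested through shControl alone and COL3A1 through shRNF25 alone, so both had to differ to be tested. The 11 renal and carcinoma markers with a row summed to 45100 to 56235 in shControl and to 58674 to 62802 in shRNF25, with VIM higher (1.31). The part of these markers in the acute-phase results was not tested.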

How the data were processed

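Bulk RNA-seq of SW839 cells was analysed in 3 shControl and 3 shRNF25 libraries, grouped by title and genotype label. The authors deposited one normalized count per gene and library, a signal that is the read count divided by one size factor per library. Per the labels, the submitters' processing notes name fastp, HISAT2, HTSeq and GRCh38, and the study's methods name a stranded kit and DESeq2. The counting annotation and strand setting are not given in the sources used here. Every deposited value was a whole multiple of a library's smallest step, so whole reads came back for 100% of values (tolerance 0.001 reads). Every row was above 0 in at least 2 libraries.

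Values were used as log2(normalized count + 1), a scale that understates changes of low genes. Genes reaching 10 in at least 3 libraries were fitted with limma 3.58.1 (lmFit, eBayes with a trend; R 4.3.3) with group as the only term. Calls needed a Benjamini-Hochberg adjusted p below 0.05 and a fold of at least 1.5, the criteria of the study. Two-sided exact permutation tests of the 6 values cannot go below 0.1. SAA1 and SAA2 were also fitted as a sum. Read ratios carry exact 95% counting intervals, and a gene without reads was set against a floor of 3 reads over the group. The scripts were tested on simulated data.

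As alternatives the pseudocount was 5 or 0.5, the filter was dropped or raised to 50, values were quantile normalized or rescaled by the median ratio of genes averaging at least 100, and a fold of at least 2 was asked. edgeR 4.0.16 and DESeq2 1.42.0 were run on the recovered reads (edgeR called 1133 genes lower and 1525 higher). A replicate block was added, and every library was left out once.

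The genes and lists were chosen with earlier results of these data known, and 1 gene of a list is not reported here. Named besides the 10 genes and RNF25 are the up to 4 called genes of each list with the largest change, genes that overlap or share sequence with the 10, and the 3 nearest profiles. Other names (OSMR, IL6ST, IL1RAP, RELA, TNF values, markers, BPIFA1, BPIFB1, STAT3, LIF) were added after their values were seen. HPX, TFRC, GTF2H1, HPS5, SAAL1 and WFDC3 are also named outside that selection. Positions and transcripts come from GENCODE 29 and promoters from RefSeq, matched by symbol.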

Additional observations from a re-analysis of the deposited data

How the results depend on the processing

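Of 133 fold changes of the acute-phase genes, their sum and RNF25 under other settings, 129 kept direction and side of the threshold. CP turned to -0.013 with DESeq2. Without shControl replicate 3, PTX3 (0.59) and CP (1.29) passed the threshold, and 2 of the acute-phase genes were called higher, against 0 in the other fits with a library left out. Without shControl replicate 1, SLPI had -0.52. With a library left out, log2 fold changes ranged from 0.073 to 0.59 for PTX3, from 0.012 to 1.29 for CP, and from -0.52 to -0.25 for SLPI. SAA1 ranged from -7.92 to -6.60 over 15 alternatives, SAA2 from -7.32 to -4.69, their sum from -7.93 to -6.71, LCN2 from -4.10 to -3.82, SERPINA1 from -2.43 to -1.73 over 14, and all of these stayed called (adjusted p up to 0.0253, SERPINA1). Without the filter SAA4 was called lower too, making 5, and the minimum of 50 removed SERPINA1 and CP from the test. In the related and marker lists together 27 genes were called lower and 11 higher, beside 7.1% and 8.65% of all tested genes. The counts are not shares of the genes tested on these lists. A minimum of 50 left 7 higher, and a fold of at least 2 left 12 lower. Quantile normalization left 21 lower. Without shRNF25 replicates 1, 2 and 3 in turn, 21, 21 and 23 were lower and 8, 8 and 9 higher.

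The replicate numbers did not pair the libraries: deviations of same-numbered libraries correlated at -0.06, -0.09 and 0.05. With the replicate number as a block, 4 acute-phase genes were called lower and 0 higher, and all genes gave 1193 lower and 1398 higher calls against 1175 and 1432 without it. Rescaling shifted the median of all genes to 0.05 and left 37.3% of calls lower, against 45.1%. The read depth limits SAA1, SAA2, SAA4 and HP, which had 0 to 6 reads per shRNF25 library.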

Other observations

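The neighbours of the serum amyloid A genes did not move as they did. Of 6 listed genes of the locus and family 4 were tested, and LDHA, the lactate dehydrogenase gene, was lower by 0.90 on the log2 scale (from 40766 ± 702.9 to 21900.1 ± 435.6, SD, n = 3, limma adjusted p = 0.0005). The call of LDHA was lost with quantile normalization and at a fold of at least 2. GTF2H1 (0.29), HPS5 (-0.03) and SAAL1 (-0.25) were not called. Of 10 other clade A serpins, relatives of SERPINA1, 2 had a row and none was tested. Of 14 other genes with the WFDC domain of SLPI, 8 had a row and 2 were tested: PI3 was lower (-0.99) and WFDC3 was not called (0.36).

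The library shControl replicate 3 stood above the other controls in several low genes. The airway defense gene BPIFB1 was at 1.11, 2.05 and 114.4 in shControl and at 33.7, 32.3 and 23.8 in shRNF25, and BPIFA1 was at 0, 1.03 and 85.3 in shControl and at 0 in shRNF25. CP, SERPINA1 and CA9 were highest in the same library. Without it SERPINA1 had a control mean of 36.7.

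STAT3, which mediates the response of acute-phase genes to IL-6, had 1, 0 and 0 reads in shControl and 0, 0 and 4 in shRNF25, in a line in which its receptor chain IL6ST was at 714.1 to 1112 in shControl. Nearly all human cells express STAT3, and why its row was near 0 was not tested. LIF, another cytokine of the IL-6 family, was at 3578, 5103 and 6009 in shControl and at 3759, 3411 and 3352 in shRNF25, with overlapping groups (log2 fold change -0.45, limma adjusted p = 0.0988).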
